A study of Populus yunnanensis and Populus davidiana with 24 samples.

Results

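In the stems of Populus davidiana cuttings, 182 genes of the 43836 in the deposited expression table stood near their 0 h level at 48 h and well above it at 120 h, while the same genes ended near their 0 h level in Populus yunnanensis. They were chosen from the values themselves, on group means of log2(FPKM + 1). FPKM counts sequenced fragments scaled to gene length and to the total of mapped fragments. A member had a P. davidiana mean at 48 h within 0.7 of that at 0 h, and a mean at 120 h at least 1.5 above that at 48 h, with all 3 libraries at 120 h above all 3 at 48 h. Its P. yunnanensis mean at 120 h lay within 1 of that at 0 h, and at least 1 P. davidiana library at 0 h reached 0.5 FPKM. These differences therefore describe the choice and carry no test. The P. davidiana libraries at 96 h and the P. yunnanensis libraries at 48 and 96 h did not enter the rule, and the tested differences are between these. The spread behind each test came from all 24 libraries, including the 15 that the rule read.

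The series holds 24 RNA sequencing libraries from stems of leafless and budless cuttings of 1-year-old branches, 3 for each of 8 groups: P. davidiana at 0, 48, 96 and 120 h and P. yunnanensis at 0, 48, 96 and 120 h. All groups share the treatment, which the labels give as cutting. The labels name no clone and do not say whether replicates came from separate plants, and the spread behind each p-value, taken from 3 libraries a group, may thus be technical. A whole stem segment holds bark, phloem, cambium and wood, and in such bulk samples fewer cells of a type and less RNA per cell cannot be told apart.

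A cut stem of poplar can make adventitious roots, which arise from cells near the cambium and phloem or from root primordia already present in the stem. Wounding, the build-up of auxin at the cut end and renewed cell division come before a root is visible. Poplars of the balsam group, to which P. yunnanensis belongs, generally root readily from stem cuttings, while aspens such as P. davidiana are known to root poorly from them. The title of the series names rooting differences between poplars as its subject. The deposited table pairs no identifier with a name or product, and no annotation was used here, so the members are given by identifier and no role is stated. For the same reason the stem tissue was not checked against marker genes here.

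Relative to a P. yunnanensis library at 96 h, the depth of mapped fragments, read from the ratios of low FPKM values, was 0.620 to 0.834 in the 12 P. davidiana libraries and 0.832 to 1.11 in the 12 P. yunnanensis libraries. The absolute number of fragments is unknown. Between 17700 and 19887 genes reached 1 FPKM in a P. davidiana library, and between 19019 and 22450 did in a P. yunnanensis library. As deposited, the median over all 24643 tested genes stood above that at 0 h by 0.10, 0.33 and 0.34 on the log2 scale at 48, 96 and 120 h in P. yunnanensis, and by 0.0032, 0.027 and 0.083 in P. davidiana. No pair of libraries held identical values.

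Of 736 genes with the required difference between 120 and 48 h in P. davidiana, 395 were also flat at 48 h. With P. yunnanensis left aside, 316 genes met all the P. davidiana conditions. Among these 316, the P. yunnanensis mean at 120 h was above that at 0 h by more than 1 in 77 (24.4%), below it by more than 1 in 57 (18.0%), and within 1 of it in the 182 members (57.6%). All 182 passed the filter on low values (at least 1 FPKM in at least 3 libraries), and 94 reached 1 FPKM in all 24 libraries.

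The members ranged from scarce to abundant transcripts. Their group means in P. davidiana at 120 h ran from 2.29 to 754 FPKM, with quartiles at 8.81, 20.7 and 44.8 FPKM. In that group no member was under 1 FPKM and 14 were over 100 FPKM, whereas at 48 h 27 members were under 1 FPKM and 2 over 100 FPKM. The ratio of the mean FPKM at 120 h to that at 48 h could be formed for 181 members. It had a median of 4.35, a range of 2.68 to 51.4, and was above 4 in 102 of them. The remaining member had 0 FPKM listed for each of the 3 libraries at 48 h. On the log2 scale the difference had quartiles of 1.60, 1.80 and 2.07.

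**Figure D1:**
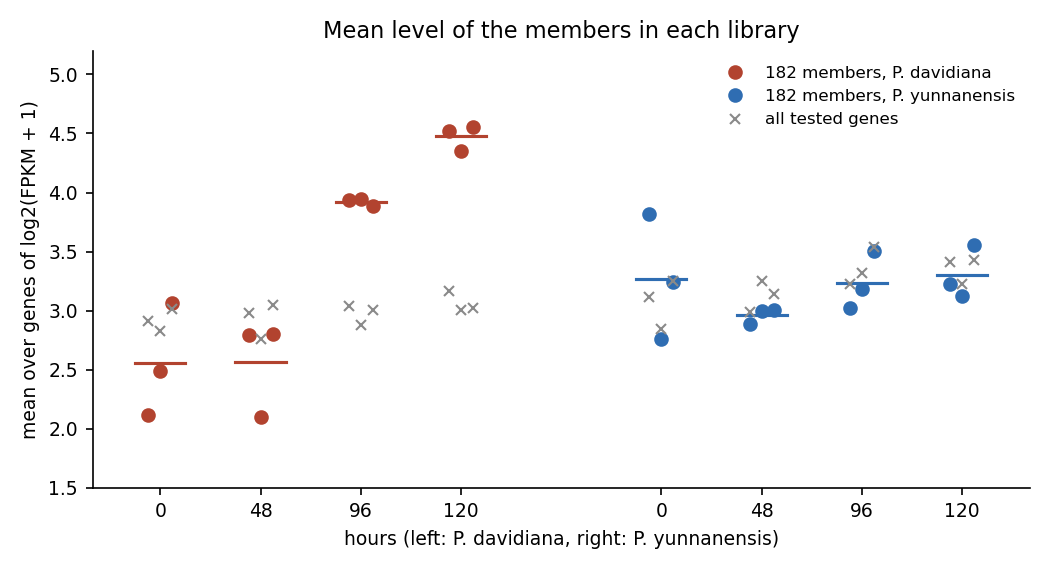
Mean of log2(FPKM + 1) over the 182 members in each library (circles; horizontal lines are the means of 3 libraries) and over the 24643 tested genes (crosses), by species and hours. The members average 3.92 and 4.48 in P. davidiana at 96 and 120 h with all 6 libraries above those at 0 and 48 h, and 2.96 to 3.30 in the P. yunnanensis groups.

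Taken as a mean over all members, the level of log2(FPKM + 1) in P. davidiana was 2.56 ± 0.479 at 0 h, 2.57 ± 0.405 at 48 h, 3.92 ± 0.0289 at 96 h and 4.48 ± 0.110 at 120 h (SD over libraries, n = 3 each). In P. yunnanensis it was 3.27 ± 0.529, 2.96 ± 0.0681, 3.24 ± 0.242 and 3.30 ± 0.226 at these times (SD over libraries, n = 3 each). The P. davidiana libraries at 96 h lay close together and above those at 48 h, which the rule had read.

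The early P. davidiana libraries differed among themselves. At 0 h the mean over the members was 2.12, 2.49 and 3.07 in replicates 1, 2 and 3, and replicate 3 held the highest value for 155 of the 182 members. Over all tested genes the same libraries stood at 2.91, 2.83 and 3.01, so the members spread more than genes in general. At 48 h the mean over the members was 2.79, 2.10 and 2.81, and replicate 2 held the lowest value for 143 of 182. Over all tested genes these 3 libraries stood at 2.98, 2.76 and 3.05.

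That low library took part in the choice, since the rule compares 120 h with 48 h. Without P. davidiana 48 h replicate 2 the rule chose 103 genes, 90 of them among the 182. Without 0 h replicate 3 it chose 147, without 48 h replicate 1 it chose 258, and without 48 h replicate 3 it chose 275, so 48 h replicates 2 and 3 each moved the number by over 1.5 times. The part of this library in single members was not tested beyond these counts. The median SD between replicates over the members was 0.54 at 0 h and 0.52 at 48 h in P. davidiana, against 0.29 and 0.33 over all tested genes. At 96 and 120 h it was 0.33 and 0.27, against 0.26 and 0.24 over all tested genes.

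Potri.001G105900.v3.1 had the highest level of all members in P. davidiana at 120 h. It stood in P. davidiana at 169.9, 389 and 344 FPKM at 0 h, 242, 158 and 297 FPKM at 48 h, 528, 829.7 and 688 FPKM at 96 h, and 627, 844 and 792 FPKM at 120 h. In P. yunnanensis it stood at 543, 369 and 459 FPKM at 0 h, 477, 374 and 590.0 FPKM at 48 h, 328, 312 and 453 FPKM at 96 h, and 194, 313 and 239.7 FPKM at 120 h. The order of the species thus turned over: every P. davidiana library was below every P. yunnanensis library at 48 h and above every one at 96 and 120 h. The gene was also lower at the end in P. yunnanensis, where all 3 libraries at 120 h were below all 3 at 0 h. Its means there were 8.82 at 0 h and 7.94 at 120 h on the log2 scale, within the limit of 1.

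Potri.005G099900.v3.1, the second most abundant member, followed another course. In P. davidiana it stood at 48.3, 181 and 135 FPKM at 0 h, 171, 112 and 140.4 FPKM at 48 h, 285, 648 and 282 FPKM at 96 h, and 314, 459.5 and 448 FPKM at 120 h. In P. yunnanensis it stood at 651, 383 and 427 FPKM at 0 h, 869, 315 and 497 FPKM at 48 h, 522, 491 and 299 FPKM at 96 h, and 359, 465 and 447 FPKM at 120 h. Here the P. davidiana libraries began below all those of P. yunnanensis and overlapped them at 96 and 120 h.

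The greatest difference between 120 and 48 h was that of Potri.005G032700.v3.1, at 4.14 on the log2 scale. Its P. davidiana libraries stood at 1.28, 16.5 and 15.3 FPKM at 0 h, 4.15, 14.9 and 6.72 FPKM at 48 h, 81.7, 11.4 and 138 FPKM at 96 h, and 207, 67.5 and 243 FPKM at 120 h. At 96 h replicate 2 was still among the values of 48 h while the other two libraries were far above them. In P. yunnanensis it varied between 2.50 and 53.8 FPKM over the 12 libraries, and the replicates of each time lay far apart.

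Potri.006G042200.v3.1 came second, with a difference of 3.11. Its P. davidiana libraries stood at 1.06, 5.88 and 12.1 FPKM at 0 h, 11.8, 0.695 and 5.10 FPKM at 48 h, 30.6, 35.6 and 19.0 FPKM at 96 h, and 73.4, 31.1 and 34.8 FPKM at 120 h. All 6 later libraries were above all 6 earlier ones. In P. yunnanensis its libraries stood at 34.4, 6.87 and 21.5 FPKM at 0 h, 6.85, 3.47 and 1.65 FPKM at 48 h, 10.1, 15.3 and 36.0 FPKM at 96 h, and 9.81, 18.4 and 11.9 FPKM at 120 h, so that all 3 libraries at 48 h lay below the other 9.

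At the edge of the rule, Potri.010G116900.v3.1 (1.501) and Potri.002G100800.v3.1 (1.507) lay just inside the required difference of 1.5. The means of the first in P. davidiana were 22.4 FPKM at 120 h and 8.13 FPKM at 48 h, and those of the second 17.4 and 5.90 FPKM. Potri.005G190500.v3.1 (1.4996) and Potri.010G237900.v3.1 (1.495) met every other condition and lay just outside, with means of 15.5 FPKM at 120 h and 4.90 FPKM at 48 h for the first of them, and 52.0 and 18.7 FPKM for the second. No gap in the values marked the limit.

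Most of the difference between 120 and 48 h was already present at 96 h. The P. davidiana mean at 96 h was above the means at both 0 and 48 h in all 182 members, and above that at 120 h in 1 of them. The difference of 96 h from 48 h had a median of 1.29 on the log2 scale, with quartiles of 1.12 and 1.60 and a range of 0.097 to 2.73, where the median over all tested genes was 0.0010. In 142 members all 3 libraries at 96 h were above all 3 at 48 h, as they were in 10.1% of all tested genes. They were below all 3 in 0 members and in 8.18% of all tested genes. The rule read the 48 h libraries, so this contrast is described and not tested.

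Expressed as a share of the difference between 120 and 48 h, the level at 96 h stood at a median of 72.6% (quartiles 63.0% and 81.3%, range 6.20% to 113%). The share was at least 50% in 166 of 182 members (91.2%) and at least 75% in 76 (41.8%), and under 25% in 3. Between 96 and 120 h the remaining difference had a median of 0.51, and all 3 libraries at 120 h were above all 3 at 96 h in 73 of 182 members, against 7.39% of all tested genes. The rule required high values at 120 h, so this contrast too is described and not tested. With the 48 h mean taken without the low replicate 2, the median share was 68.4%, and the median difference of 96 h from 48 h was 1.07. Among the 103 genes chosen without that library, the median share was 68.8%.

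**Figure D2:**
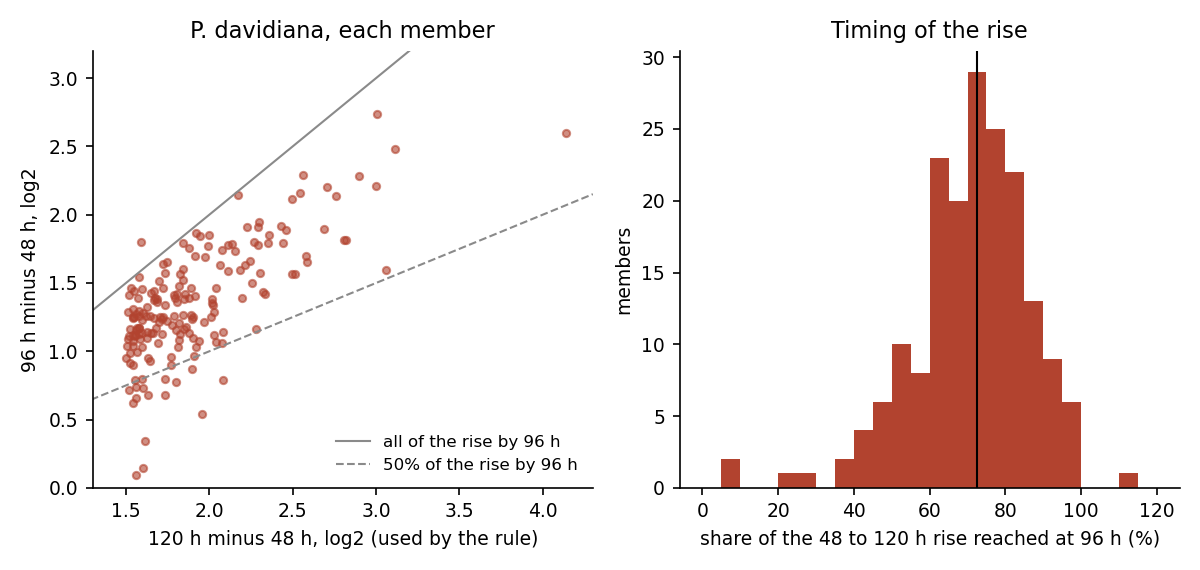
Left: for each of the 182 members in P. davidiana, the 96 h minus 48 h difference against the 120 h minus 48 h difference (log2 of FPKM + 1), with lines for 100% and 50% of the rise. Right: number of members by the share of the rise reached at 96 h, with the median of 72.6% as a vertical line; 166 members lie at 50% or more.

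The members differed in this timing. Potri.018G071400.v3.1 had the largest share, 113%, with 4.06, 3.71 and 2.04 FPKM at 48 h, 11.2, 20.4 and 10.7 FPKM at 96 h, and 8.02, 14.1 and 13.6 FPKM at 120 h in P. davidiana. Potri.004G075800.v3.1 followed with 98.9%, at 6.38, 1.88 and 5.92 FPKM at 48 h, 21.4, 30.8 and 16.9 FPKM at 96 h, and 33.8, 15.9 and 21.7 FPKM at 120 h. Both had reached their later level by 96 h, and their libraries at 96 and 120 h overlapped.

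The smallest shares were 6.20% for Potri.001G380000.v3.1 and 9.04% for Potri.002G155600.v3.1. In P. davidiana the first stood at 2.27, 1.35 and 1.14 FPKM at 48 h, 4.61, 0.367 and 1.62 FPKM at 96 h, and 8.35, 3.102 and 10.007 FPKM at 120 h. The second stood at 4.04, 2.45 and 9.75 FPKM at 48 h, 7.76, 3.48 and 5.43 FPKM at 96 h, and 31.0, 11.04 and 12.6 FPKM at 120 h. For these members the 96 h libraries overlapped those of 48 h, and the low values of the first leave its share poorly determined.

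By level, the median share reached at 96 h was 67.9% in the 14 members under 5 FPKM in P. davidiana at 120 h, 66.2% in the 74 from 5 to 20 FPKM, 77.1% in the 80 from 20 to 100 FPKM and 81.3% in the 14 above. The log2 scale with 1 FPKM added understates the differences of low genes, and its part in these shares was not tested. The libraries at 120 h that set the level also entered the rule, so the split is a description.

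In P. yunnanensis the rule fixed the ends of the course and left its middle open. The difference from 0 h over the members had a median of -0.29 at 48 h, -0.025 at 96 h and 0.028 at 120 h, while over all tested genes the medians were 0.10, 0.33 and 0.34. With the libraries rescaled by the median ratio of their genes, which brought the medians over all tested genes to -0.0087, 0.00088 and -0.012, the members had medians of -0.41, -0.37 and -0.31. These are changes from 0 h, which the rule held within 1 at 120 h, and they are given as a description. In P. davidiana the same rescaling left their median difference from 0 h at -0.023, 1.32 and 1.74 at 48, 96 and 120 h. The P. yunnanensis mean at 120 h was above that at 48 h by a median of 0.36 over the members, against 0.22 over all tested genes. After the rescaling these medians were 0.12 and -0.0069. Every P. yunnanensis library at 120 h was above every one at 48 h in 42 of 182 members, against 17.5% of all tested genes. The reverse held in 1 member, against 3.59%. Because the rule read the 120 h libraries, this contrast is described and not tested.

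The P. yunnanensis mean stayed within 1 of its 0 h mean at 48, 96 and 120 h in 149 members and went outside at 48 or 96 h in the other 33. At 48 h it was below by more than 1 in 24 members and above by more than 1 in 3. At 96 h it was below by more than 1 in 10 and above by more than 1 in 3. The 24 members that were low at 48 h had a median difference from 0 h of -1.26 at 48 h, -0.54 at 96 h and -0.46 at 120 h in P. yunnanensis. P. yunnanensis 0 h replicate 1 was the highest of the 3 libraries at 0 h for 15 of these 24, and for 121 of all 182 members, with a mean over the members of 3.82 against 2.76 and 3.24 in replicates 2 and 3. Its part in the differences from 0 h was not tested.

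**Figure D3:**
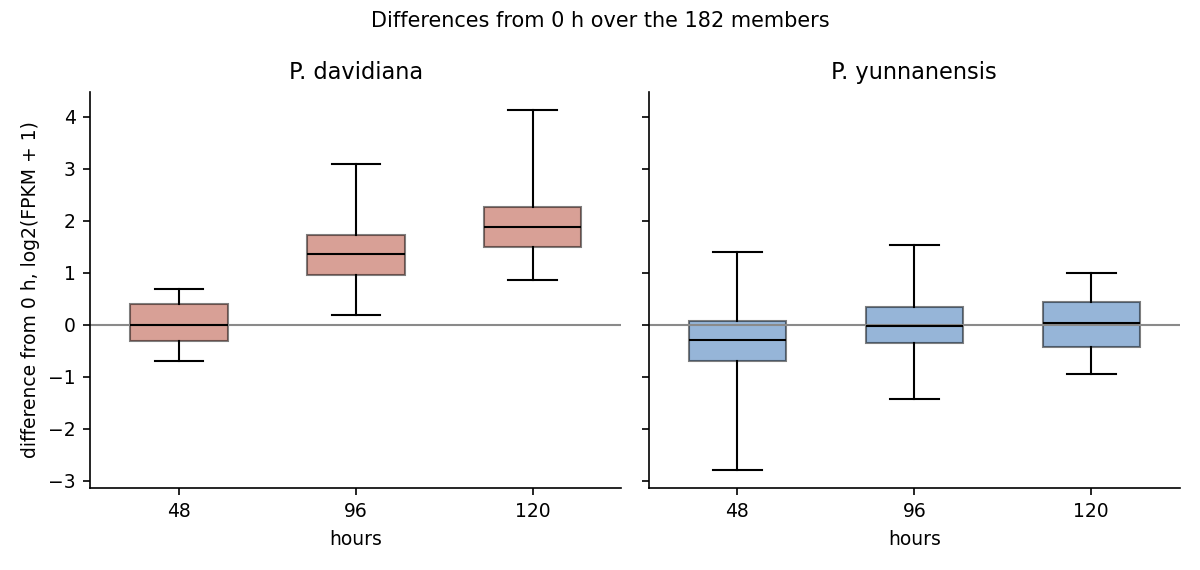
Difference from the 0 h mean on the scale of log2(FPKM + 1) over the 182 members at 48, 96 and 120 h in P. davidiana (left) and P. yunnanensis (right); boxes span the quartiles, lines mark medians and whiskers reach the lowest and highest member. The 48 and 120 h boxes in P. davidiana and the 120 h box in P. yunnanensis are limited by the rule; at 96 h the medians are 1.36 in P. davidiana and -0.025 in P. yunnanensis.

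Whether the members moved in P. yunnanensis between times that the rule did not read was tested as 96 h minus 48 h, with limma over all tested genes. None of the 182 members was called at an adjusted p under 0.05 by this test, which called 0.288% of all tested genes as higher and 0.00406% as lower at 96 h. At an unadjusted p under 0.05 there were 9 members (4.95%), against 10.8% of all tested genes. The smallest adjusted p of a member was 0.0594. The median difference of the members was 0.25, close to the 0.22 over all tested genes, with a median SE of 0.42 for a single member. Even a difference of 2.11 (SE 0.47) in a single member was not called, so the absence of calls does not show that the members were constant. The number called over all genes was itself unstable, at 0 from the 6 compared libraries alone and 186 without P. yunnanensis 48 h replicate 2, against 72 in all.

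The members with the highest difference in this comparison were Potri.002G155600.v3.1 and Potri.006G042200.v3.1, neither of which passed the test. The first stood in P. yunnanensis at 8.37, 7.95 and 14.2 FPKM at 96 h and at 0.574, 3.15 and 1.45 FPKM at 48 h, a difference of 2.11 (log2, SE 0.47, adjusted p = 0.0594). It was called without P. yunnanensis 48 h replicate 2 (adjusted p = 0.0266). Over its alternatives the adjusted p ran from 0.0266 to 0.383. Potri.006G042200.v3.1, with the values given above, had a difference of 2.05 (SE 0.72, adjusted p = 0.307). In P. yunnanensis both were at their lowest at 48 h and near their 0 h mean at 96 h.

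The lowest differences in this comparison were those of Potri.005G032700.v3.1, at -0.99 (SE 1.02, adjusted p = 0.727), and Potri.002G102100.v3.1, at -0.72 (SE 0.63, adjusted p = 0.675). The second stood in P. yunnanensis at 132, 95.5 and 82.2 FPKM at 96 h and at 348, 96.7 and 139.5 FPKM at 48 h, with the high value of 48 h replicate 1 setting the groups apart. Neither passed the test.

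The species were compared at 96 h, where no library had entered the rule. Of the 182 members, 63 were higher in P. davidiana than in P. yunnanensis and 11 lower, by limma at an adjusted p under 0.05. Over all tested genes 13.9% were called higher in P. davidiana and 31.9% lower, so that 34.6% of the members against 13.9% of all genes were higher, and 6.04% against 31.9% were lower. In both directions together 40.7% of the members were called, against 45.8% of all tested genes. The order of these 2 shares depended on the libraries behind the spread. Fitted on the 6 compared libraries alone, 52.7% of the members were called, against 48.5% of all tested genes. When the fit gave each group its own weight, the shares were 51.6% and 53.5%. Over the members the difference, P. davidiana minus P. yunnanensis, had a median of 0.69 (quartiles -0.25 and 1.497, range -2.73 to 5.02), and over all tested genes a median of -0.34. All 3 P. davidiana libraries were above all 3 of P. yunnanensis for 85 members (18.9% of all tested genes) and below them for 28 (39.9% of all tested genes). The members were chosen for a late difference in P. davidiana, though not in these libraries, and for presence there at 0 h. No presence in P. yunnanensis was required, and the set of all tested genes was held to none of these conditions. The choice thus favoured higher levels in P. davidiana, so the gap between these shares describes the chosen set. The lower depth of the P. davidiana libraries moves with this comparison, and its part was not tested. Any loss of fragments at alignment may also differ between the species, and was not tested.

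The split over all genes depended on the scaling, at 3436 higher and 7856 lower as deposited. It was 4672 and 6500 after scaling by median ratios, and 5489 and 5389 after quantile normalization. Among the members, scaling by median ratios gave 85 higher and 9 lower, and quantile normalization gave 90 higher and 7 lower. In both directions together these made 51.6% of the members, against 45.3% of all tested genes, and 53.3%, against 44.1%. Among the 103 genes chosen without P. davidiana 48 h replicate 2, 38 were higher and 5 lower in the values as deposited. Of all tested genes 13.9% were higher and 31.9% lower in these values.

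The species also differed before the rise. At 0 h the difference over the members, P. davidiana minus P. yunnanensis, had a median of -0.77, against -0.078 over all tested genes, and at 48 h it had a median of -0.36, against -0.15. At 120 h it was 1.10, against -0.29. The P. davidiana mean was the lower one in 131 members at 0 h and in 34 at 120 h. At 0 h all 3 P. davidiana libraries were below all 3 of P. yunnanensis for 51 members (23.4% of all tested genes) and above them for 12 (20.8% of all tested genes). The libraries overlapped for 119 of 182, a larger share than among all tested genes, so separation at 0 h was not particular to the members. At 120 h all 3 P. davidiana libraries were above all 3 of P. yunnanensis for 107 (21.9% of all tested genes) and below for 13 (37.9% of all tested genes). The libraries at 0 and 120 h entered the rule, so these values are a description.

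Set by a limit of 0.5 on the log2 scale, P. davidiana stood below P. yunnanensis at 0 h in 110 members, near it in 45 and above it in 27. Of the 110 that began below, 52 stood above P. yunnanensis at 120 h, 42 stood near it and 16 were still below. Of the 45 that began near, 43 stood above at 120 h and 2 near. All 27 that began above were above at 120 h. The rule read the libraries at both of these times, so the classes only describe the members.

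**Figure D4:**
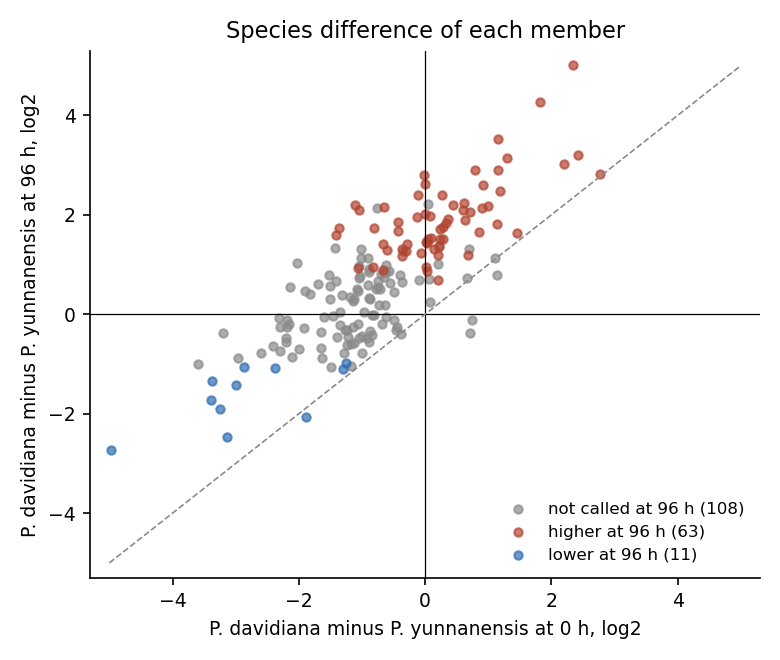
Difference P. davidiana minus P. yunnanensis on the scale of log2(FPKM + 1) at 96 h against that at 0 h for each of the 182 members; colours give the limma call at 96 h, the dashed line marks equal differences and the solid lines mark 0. Most points lie above the dashed line, with 63 members called higher and 11 called lower at 96 h.

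The calls at 96 h can be set beside the starting position. Of the 63 members higher in P. davidiana at 96 h, 21 had begun above, 31 near and 11 below the P. yunnanensis level. All 11 that were lower at 96 h had begun below. The 63 had median levels of 15.6 FPKM in P. davidiana and 3.01 FPKM in P. yunnanensis at 96 h, and a median difference of 0.20 at 0 h, 0.54 at 48 h, 1.82 at 96 h and 2.35 at 120 h. The 11 had median levels of 11.6 FPKM in P. davidiana and 39.9 FPKM in P. yunnanensis at 96 h, and median differences of -2.997, -2.75, -1.43 and -0.83 at these times. The 108 members that were not called had medians of -1.04, -0.78, 0.19 and 0.62.

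The highest difference at 96 h was that of Potri.009G104000.v3.1, whose FPKM values were near 0 in P. yunnanensis. Whether its fragments were lost at alignment in that species was not tested. It stood at 142, 17.5 and 20.7 FPKM in P. davidiana and at 0, 0.136 and 0.487 FPKM in P. yunnanensis. The species differed by 5.02 (log2, SE 0.58, adjusted p = 8.8e-07). With P. yunnanensis at or near 0 the size of this difference depends on the pseudocount, being 7.28 with 0.1 in place of 1 FPKM added, and it was 4.07 without P. davidiana 96 h replicate 1. In P. davidiana it was at 5.08, 5.78 and 9.77 FPKM at 0 h and at 108, 54.9 and 73.3 FPKM at 120 h. In P. yunnanensis its highest value in the 12 libraries was 0.628 FPKM, at 0 h, so the groups of the species did not overlap at any time.

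Potri.017G064100.v3.1 stood at 48.3, 39.3 and 25.9 FPKM in P. davidiana and at 0.180, 0.866 and 2.36 FPKM in P. yunnanensis at 96 h, higher by 4.27 (log2, SE 0.63, adjusted p = 1.9e-05), or by 5.39 with 0.1 in place of 1 FPKM added. Its P. davidiana libraries at 0 h, at 0.324, 3.48 and 13.4 FPKM, spread widely and overlapped the 0.623, 0 and 0.203 FPKM of P. yunnanensis. At 120 h they stood at 40.9, 53.3 and 40.3 FPKM, against 0.307, 0.964 and 1.46 FPKM in P. yunnanensis. The gene was scarce in P. yunnanensis at 0 h, and the libraries of the species did not overlap at 96 or 120 h.

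The lowest difference at 96 h was that of Potri.001G402600.v3.1, at 145, 90.6 and 111 FPKM in P. davidiana and 622, 768 and 907 FPKM in P. yunnanensis. The species differed by -2.73 (log2, SE 0.56, adjusted p = 0.000552). In P. davidiana it had stood at 17.2, 30.8 and 56.6 FPKM at 0 h, and it stood at 148, 213 and 330.0 FPKM at 120 h. In P. yunnanensis it stood at 2942, 656 and 530.2 FPKM at 0 h and at 566, 941 and 562 FPKM at 120 h. Even at its highest in P. davidiana, the gene stayed below every P. yunnanensis library.

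Potri.011G129400.v3.1 was likewise below P. yunnanensis at every time. It stood at 34.6, 19.95 and 27.4 FPKM in P. davidiana and 152, 162 and 142 FPKM in P. yunnanensis at 96 h, a difference of -2.46 (log2, SE 0.60, adjusted p = 0.00251). At 120 h it stood at 89.9, 39.4 and 45.5 FPKM in P. davidiana and at 108, 134 and 156 FPKM in P. yunnanensis. The call of these 4 members held under every alternative run.

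Of the abundant members, Potri.001G105900.v3.1 was higher in P. davidiana at 96 h by 0.90 (log2, SE 0.31, adjusted p = 0.023). This call ended without P. davidiana 96 h replicate 2 (adjusted p = 0.0983) or 3 (adjusted p = 0.057), and without P. yunnanensis 96 h replicate 1 (adjusted p = 0.0664) or 2 (adjusted p = 0.0807). Over all its alternatives the adjusted p ran from 0.00661 to 0.0983. Potri.005G099900.v3.1 differed by -0.19 (SE 0.43, adjusted p = 0.748), within the spread of its replicates. Potri.005G032700.v3.1 differed by 2.21 (SE 1.02, adjusted p = 0.0815) and did not pass the test as fitted. It passed without P. davidiana 96 h replicate 2 (3.25, adjusted p = 0.0189), with median ratio scaling (adjusted p = 0.0484), with quantile normalization (adjusted p = 0.0472) and with the spread weighted by group (adjusted p = 0.0491). Its adjusted p ran from 0.0189 to 0.295 over its alternatives.

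**Figure D5:**
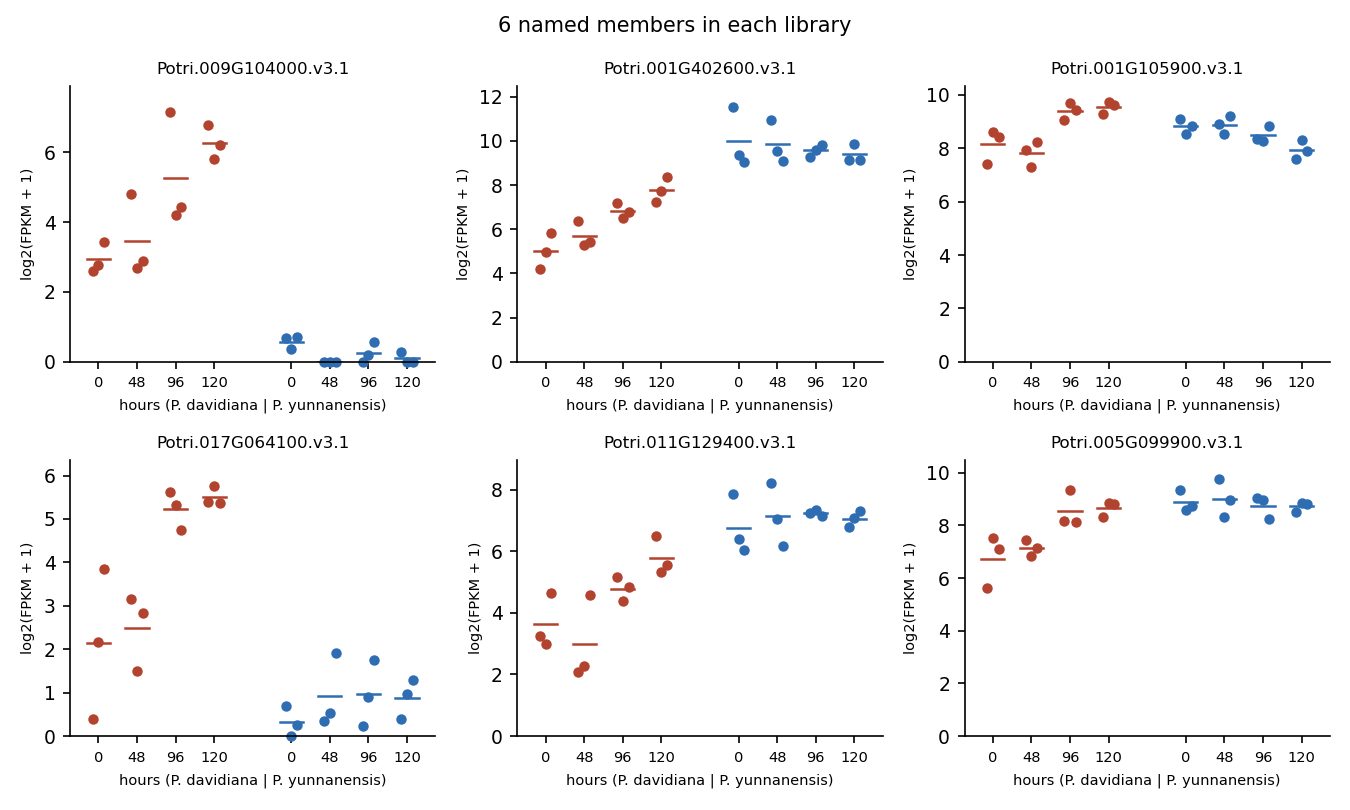
log2(FPKM + 1) of 6 members in each library (points; horizontal lines are the means of 3 libraries) by hours, with P. davidiana on the left and P. yunnanensis on the right of each panel. The left panels show the members with the highest species difference at 96 h (5.02 and 4.27), the middle panels those with the lowest (-2.73 and -2.46), and the right panels the members with the highest FPKM in P. davidiana at 120 h.

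A few members were hardly seen in P. yunnanensis at all. In the 12 P. yunnanensis libraries, 1 member was at 0 FPKM throughout and 4, this one included, were under 1 FPKM throughout. More had a low group mean there, under 1 FPKM in 21, 36, 22 and 23 members at 0, 48, 96 and 120 h. In P. davidiana the group mean was under 1 FPKM in 25, 27, 0 and 0 members at these times. Means of log2(FPKM + 1) cannot differ by more than 1 where both FPKM means are under 1. Members under 1 FPKM at both 0 and 120 h thus met the P. yunnanensis limit by low level alone. Over the members the range of the 4 group means had a median of 1.96 in P. davidiana, against 0.75 in P. yunnanensis, and it was the larger in P. davidiana in 179 of 182 members. The range in P. davidiana includes the difference that the rule required. In P. yunnanensis the rule held the mean at 120 h within 1 of that at 0 h, so the choice favoured this order.

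Going by the numbers within their identifiers, the members came from all 19 chromosomes. Chromosome 1 held 22 of them (12.1%, against 11.2% of all tested genes), chromosome 5 held 19 (10.4%, against 6.62%), chromosome 2 held 18 (9.89%, against 6.86%) and chromosome 10 held 16 (8.79%, against 6.58%). Chromosomes 7, 13 and 19 held 2 each. Another 5 members carried the mark of an unplaced scaffold, and 1 was an assembled locus without a reference identifier.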

How the data were processed

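RNA from stems of cuttings of 2 poplars was sequenced on an Illumina platform, per the labels' protocols. Per the file headers, the deposited values are FPKM. No aligner, counter or genome build is named in the sources used here. An FPKM rests on an assumed gene length and on all mapped fragments of its library, and a species unlike the reference may lose fragments at alignment. Libraries were put in groups by their titles, and all columns were matched. Identifiers start with Potri and end in version 3.1, or name assembled loci.

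The members and lists were chosen with earlier results of these data known. The lists, set by product description, could not be matched to identifiers and were not analysed here. The 24643 genes that reached 1 FPKM in 3 or more libraries were tested, as log2(FPKM + 1), by limma 3.58.1 in R 4.3.3. It fitted 1 mean per group over all 24 libraries (16 residual degrees of freedom) with a variance trend, and p-values were adjusted by Benjamini-Hochberg over all tested genes. Contrasts between groups that the rule read were not tested. The fit was tested on simulated data. By a fixed rule, cut to 2 identifiers in each direction because no names were at hand, named members are the top 2 by level and by rise at 120 h, the top and bottom 2 by share reached at 96 h and by each tested difference, and those next to the 1.5 limit. Relative depth is the most frequent ratio of values between 0.03 and 0.3 FPKM. Python 3.11.15, numpy 2.4.6, pandas 2.3.3 and matplotlib 3.10.9 were used.

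Replicate numbers recur in every group. Deviations from group means correlated between P. yunnanensis 96 and 48 h libraries of the same number (r over genes 0.320, 0.175 and 0.171), and a blocked fit was run beside the reported one, which has no block. Between the species at 96 h the deviations were not positively correlated (-0.185, -0.031 and -0.025). What the number marks is not given in the labels.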

Additional observations from a re-analysis of the deposited data

How the results depend on the processing

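The number of genes that the rule chose depended on its limits and on the scaling. It was 182 as deposited, 116 with quantile normalization (93 of them among the 182), 56 when a rise of at least 2 was required, 583 with at least 1, and 109 with P. yunnanensis held within 0.5. Leaving out each of the 15 libraries in turn gave 103 to 275 genes, the lowest without P. davidiana 48 h replicate 2 and the highest without 48 h replicate 3. Other settings gave 129 (median ratio scaling), 208 (TPM) and 210 (a pseudocount of 0.1, 119 of them among the 182). At 96 h the species differed in 74 members (40.7%, against 45.8% of all tested genes). Each other setting on the same members gave a count within 1.5 times of this, with 62 to 69 without 1 of the 6 libraries and 97 with quantile normalization. A fit on the 6 compared libraries alone called 96 members (52.7%, against 48.5% of all tested genes), so the order of the shares turned. The genes chosen without P. davidiana 48 h replicate 2 gave 43 of 103 (41.7%), and those chosen after quantile normalization 41 of 115 tested (35.7%), both called in the values as deposited; both choices were added after seeing the data. For the P. yunnanensis change from 48 to 96 h no setting called a member, apart from 1 member without 48 h replicate 2 (0 to 1 without single libraries). With the replicate number as a block, 83 members (45.6%, against 47.5% of all tested genes) differed between the species at 96 h, and 0 changed in P. yunnanensis. Between the species at 96 h, deviations of libraries of the same number were not positively correlated. Of 510 values of named members under other settings, 495 kept their call, 5 lost it, 10 gained it and 0 turned. Depth in fragments is unknown, so no counting interval is given, and members under 1 FPKM are the least certain.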
